A study of Mus musculus with 8 samples.

Results

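The regions described here are 304 broad domains of histone H3 lysine 27 acetylation (H3K27ac) in the mouse adrenal gland, chosen because their peaks ranked among the widest at postnatal day 1 (P1) and not at 12 weeks. On chromosomes 1 to 19 the 1000 widest peaks were taken from the peak list of each library, and the wide peaks of the P1 female and P1 male lists were merged into 1328 regions. Of these, 651 held a wide peak of both P1 lists, and the 304 domains (46.7% of the 651, the share that the choice itself fixes) overlapped none of the 1000 widest peaks of either 12-week list. The other 347 of the 651 were wide at both ages. A mirrored choice, wide in both 12-week lists and outside the 1000 widest of both P1 lists, gave 325 domains, here called 12-week-ranked. The 304 are called P1-ranked domains, because they were chosen by rank within each list and most of them were not narrower at 12 weeks.

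The study mapped H3K27ac by ChIP-seq, in which chromatin bound by an antibody is sequenced, and used intact adrenals of the inbred strain C57BL/6J. All libraries shared this strain and the antibody, and no treatment or altered allele is given. There was 1 library of E18.5 embryos of undetermined sex (30 glands pooled), and 1 library of each sex at P1 (22 glands each), 2 weeks (12 glands each) and 12 weeks (6 glands each). No combination of age and sex had a second library, so values of the sexes are given side by side, no difference was tested, and every interval below covers counting error only. A pool averages animals and holds cortex, medulla, capsule, vessels and blood together, so fewer cells of a type and less acetylation per cell cannot be told apart. An input DNA library of 12-week females was not analysed here.

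H3K27ac is placed by the acetyltransferases CBP and p300 and marks promoters and enhancers that are in use. Most marked regions are short, while broad stretches tend to lie over genes that a tissue transcribes strongly or that fix its identity. The adrenal gland grows and is remodelled after birth: the steroid-producing cortex is renewed from cells below the capsule, the mesenchymal sheath of the gland, and growth slows with age. Imprinted growth genes such as Igf2, H19, Dlk1, Grb10 and Peg3 are known for high expression in fetal and newborn tissues and lower expression afterwards.

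Stretches of 300 bases are shown first for the 4 domains least covered by peaks at 12 weeks, because these domains come closest to what the choice set out to find. Each stretch lay whole inside peaks of both P1 lists and was touched by no peak of either 12-week list. Among the stretches of its domain that met these conditions, it held the most different motifs of 6 searched. The 6 motifs were searched on both strands. The half-site of nuclear receptors such as Nr5a1 was AAGGTCA. For GATA factors the letters were AGATAA, and for the AP-1 factor TGANTCA. The promoter factor NF-Y was given by CCAAT, the GC box by GGGCGG and the E-box by CAGCTG. None of them contains another. Capitals mark the matches. All sequences are from the GRCm38 genome, plus strand. The first stretch, chr7:142524946-142525245, lay between the genes Tnnt3 and Mrpl23. The second, chr7:142568215-142568514, lay between Mrpl23 and H19. The third, chr11:94945745-94946044, lay inside Col1a1, with 108 of its bases in 1 exon and the rest in introns. The fourth, chr12:109400791-109401090, lay between genes on the upstream side of Dlk1.
Mrpl23 upstream flank: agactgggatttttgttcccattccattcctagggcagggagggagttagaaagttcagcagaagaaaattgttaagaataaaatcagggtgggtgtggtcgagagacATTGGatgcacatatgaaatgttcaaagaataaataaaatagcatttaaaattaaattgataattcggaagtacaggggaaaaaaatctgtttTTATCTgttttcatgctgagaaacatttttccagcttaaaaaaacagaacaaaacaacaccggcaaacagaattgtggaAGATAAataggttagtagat
H19 downstream flank: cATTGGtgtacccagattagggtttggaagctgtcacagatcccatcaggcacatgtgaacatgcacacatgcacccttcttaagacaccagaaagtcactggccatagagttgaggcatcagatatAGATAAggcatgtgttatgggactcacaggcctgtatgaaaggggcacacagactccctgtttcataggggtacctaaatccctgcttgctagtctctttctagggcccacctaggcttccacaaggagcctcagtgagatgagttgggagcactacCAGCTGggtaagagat
Col1a1 body: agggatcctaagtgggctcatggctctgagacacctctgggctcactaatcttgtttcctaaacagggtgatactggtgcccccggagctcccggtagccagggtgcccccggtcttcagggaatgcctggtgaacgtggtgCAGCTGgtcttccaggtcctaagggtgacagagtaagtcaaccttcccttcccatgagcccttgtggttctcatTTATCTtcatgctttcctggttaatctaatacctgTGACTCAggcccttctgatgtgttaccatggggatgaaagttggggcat
Dlk1 upstream flank: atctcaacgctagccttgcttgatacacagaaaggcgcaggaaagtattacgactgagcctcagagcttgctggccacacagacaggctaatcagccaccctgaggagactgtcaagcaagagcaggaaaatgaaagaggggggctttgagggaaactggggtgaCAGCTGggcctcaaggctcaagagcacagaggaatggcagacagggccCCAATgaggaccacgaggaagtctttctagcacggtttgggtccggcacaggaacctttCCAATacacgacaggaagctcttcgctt

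The H19 stretch held the GATA, NF-Y and E-box motifs and the Col1a1 stretch the AP-1, GATA and E-box motifs. Of the 36033 windows of 300 bases in all P1-ranked domains, 3.57% held at least 3 different motifs. The Mrpl23 and Dlk1 stretches held 2 different motifs, and 21.6% of windows held at least 2. A match describes letters and is not a bound site.

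Promoter windows from RefSeq (GRCm38, 250 bases before to 50 after a start) fell inside 186 of the domains, 315 windows in all for 248 gene symbols. Of these, 306 were covered whole in both P1 lists, 303 in both 2-week lists and 300 in both 12-week lists. Only 2 windows were covered in both P1 lists and in neither 12-week list, and both are shown for that reason. The first belongs to the long noncoding RNA 3930402G23Rik (chr8:10928408-10928707, minus strand) in a domain between genes, and was covered 100% in both P1 lists and 0% in the other lists, E18.5 included. The second belongs to Pdgfra (chr5:75152001-75152300, plus strand), named after its values had been seen, and was covered 21.3% at E18.5, 100% in both P1 lists and in 2-week females, and 0% in 2-week males and in both 12-week lists. Peaks near the start of Pdgfra remained in these lists. Within 1 kb of a start the widest measured 2343 bp in 2-week males. At 12 weeks it measured 4422 bp in females and 1882 bp in males.
3930402G23Rik promoter: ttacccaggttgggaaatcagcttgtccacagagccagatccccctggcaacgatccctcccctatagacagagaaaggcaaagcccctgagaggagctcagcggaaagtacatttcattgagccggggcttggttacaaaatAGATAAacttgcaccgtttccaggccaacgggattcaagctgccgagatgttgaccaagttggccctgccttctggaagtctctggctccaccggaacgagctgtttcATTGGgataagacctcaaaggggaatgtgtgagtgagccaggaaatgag
Pdgfra promoter: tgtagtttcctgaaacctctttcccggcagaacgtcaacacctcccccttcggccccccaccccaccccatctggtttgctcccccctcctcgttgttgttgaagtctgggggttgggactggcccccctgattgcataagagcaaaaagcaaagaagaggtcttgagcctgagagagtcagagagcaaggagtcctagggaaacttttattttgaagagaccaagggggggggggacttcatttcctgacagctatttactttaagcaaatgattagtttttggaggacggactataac

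Capitals mark a GATA and an NF-Y match in the first window, and the second held none of the 6 motifs. Among 31396 RefSeq promoter windows on these chromosomes, 37.3% held the NF-Y motif, 36.0% the GC box, 16.3% the E-box, 11.2% the GATA motif, 7.84% the AP-1 motif and 4.69% the nuclear receptor half-site.

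Hairpins of microRNAs with RefSeq sequences lay inside 4 of the domains, out of 919 hairpins on these chromosomes. Mature strands of the pair of microRNAs best known from mesenchyme and from progenitor cells are shown, with the seed (bases 2 to 8) in capitals. They come from Mir199a-2 (chr1:162217844-162217904 from the first to the last mature base, plus strand, inside the noncoding RNA Dnm3os) and Mir125b-1 (chr9:41581940-41582001, plus strand). The 4 seeds differ from each other.
miR-199a-5p: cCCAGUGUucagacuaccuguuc
miR-199a-3p: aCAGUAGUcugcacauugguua
miR-125b-5p: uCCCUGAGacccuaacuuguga
miR-125b-1-3p: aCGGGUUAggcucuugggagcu

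The domains of these microRNAs were covered differently after P1. The Mir125b-1 domain (chr9:41579431-41585970) was covered 36.5% at E18.5, 84.3% and 98.3% at P1 (the female list first, as in each pair of values at 1 age from here on), 97.6% and 99.5% at 2 weeks, and 99.9% and 98.4% at 12 weeks. The Mir199a-2 domain (chr1:162215149-162222223) was covered 9.87% at E18.5, 94.5% and 90.6% at P1, 65.4% and 38.5% at 2 weeks, and 81.6% and 29.6% at 12 weeks. The first stayed marked from end to end, and the second had lower values in the males at both later ages. Mir3109 and Mir1894 lay in domains covered at least 97.3% in all 4 later lists.

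Taken over all 304, the label "specific to P1" was not borne out. The median domain had 96.9% of its bases in P1 female peaks and 96.8% in P1 male peaks, 94.9% and 92.7% in the 2-week female and male peaks, and 99.6% and 97.9% in the 12-week female and male peaks. The 2-week lists took no part in the choice. There, 284 of the 304 domains were at least 50% covered in both sexes (93.4%, 95% Wilson interval 90.1% to 95.7%), against 69.1% of all 32058 regions with peaks in both P1 lists. In both 12-week lists it was also 284 domains, against 78.7% of all such regions, a value the choice bears on. The regions of that background had a median widest P1 female peak of 1223 bp, against 5482.5 bp in the P1-ranked domains, so the shares are set side by side for regions of different size. Domains wide at both ages were at least 50% covered in both 2-week lists in 346 of 347 cases, and 12-week-ranked domains in 238 of 325 (73.2%, interval 68.2% to 77.8%).

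**Figure D1:**
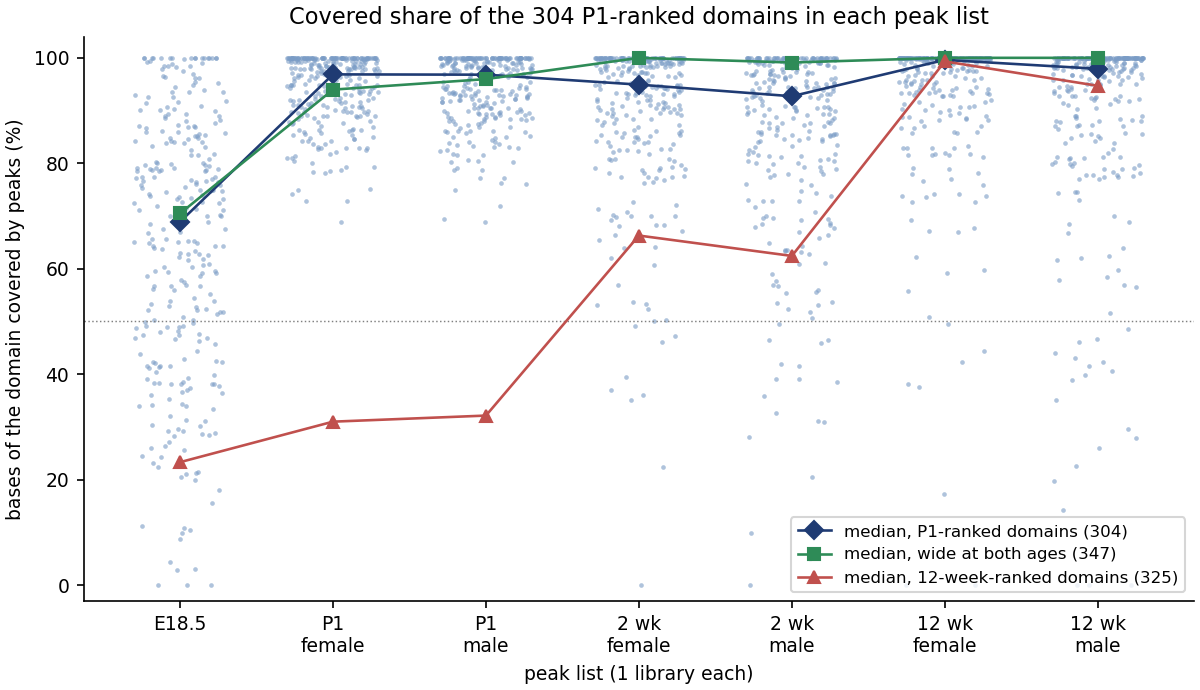
Each point is 1 of the 304 P1-ranked domains and gives the percent of its bases inside peaks of 1 list (vertical axis), by peak list (horizontal axis); diamonds, squares and triangles are the medians of the P1-ranked domains, of the 347 domains wide at both ages and of the 325 12-week-ranked domains. The P1-ranked median stays between 92.7% and 99.6% after P1, while the E18.5 median is 68.9%.

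The E18.5 list, also outside the choice, covered the domains less. Its peaks were more and shorter, 106203 with a median of 637 bp. The postnatal lists held 43638 to 66594 peaks, with medians of 854.5 bp to 1270 bp. More than 1 E18.5 peak touched 140 of the domains, against 22 and 23 of them at P1. The part of this splitting in the lower E18.5 share was not tested. The median covered share was 68.9%, and 214 domains (70.4%, interval 65.0% to 75.2%) were at least 50% covered, against 49.9% of all regions with peaks in both P1 lists. With 75% of bases as the bar the count was 125 (41.1%), and with only E18.5 peaks of a −log10 q of at least 5 it was 141 (46.4%). At E18.5, 115 domains held 1 of that list's 1000 widest peaks, against 3.47% of the background, and 3 (0.99%, against 26.5%) had no peak. Those 3 lay away from coding starts, inside Lpp and near Slc43a3 and Gm10295, and all 3 were covered at least 84.1% in the 4 later lists.

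The choice was one of rank, and the width behind a rank differed between the lists. The 1000th widest peak measured 4469 bp and 4506 bp at P1, and 10129 bp and 9049 bp at 12 weeks. A peak of a given width could thus rank among the 1000 widest at P1 and not at 12 weeks. The lists themselves covered 58.1 Mb and 55.4 Mb at P1 and 129 Mb and 101 Mb at 12 weeks, and in 252 of the 304 domains the widest 12-week peak reached the P1 limit of 4469 bp in both sexes. In 168 domains (55.3%, against 57.7% of all regions with peaks in both P1 lists) both 12-week peaks were wider than both P1 peaks. In 37 (12.2%, against 11.7%) both were narrower. Both 12-week peaks were at least 2-fold narrower than the lesser P1 peak in 10 domains (3.29%, against 6.88%), and both 2-week peaks were in 9 (2.96%, against 10%). The choice bears on all these shares, because it used the P1 and 12-week widths and the background was not chosen by width. Both 12-week peaks were at least 2-fold wider than the P1 peaks in 0 of the 304, against 20.7% of the background.

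**Figure D2:**
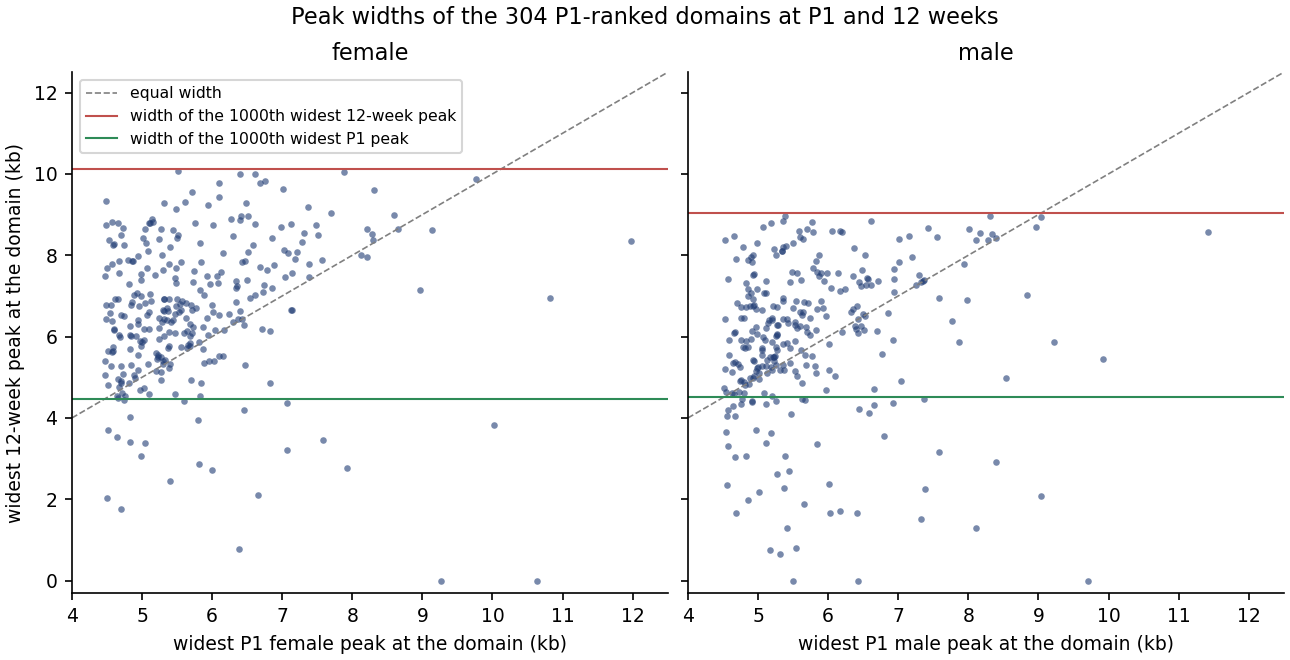
Each point is 1 of the 304 domains, with the widest P1 peak touching it on the horizontal axis (kb) and the widest 12-week peak on the vertical axis (kb), females left and males right; lines mark equal width and the width of the 1000th widest peak at each age. In both panels most points lie above the dashed line of equal width. None reaches the 12-week limit of 10129 bp in females or 9049 bp in males, as the choice required.

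At the edge of the choice, the 3 domains with the smallest P1 peaks were those at Sema6a (lesser P1 width 4478 bp), Cnot6l (4471 bp) and near Krt78 (4469 bp). The 3 regions that came closest to being chosen held the starts of Nol4l, Cluh and Zfp516. Their 12-week peaks measured 7078 bp and 9063 bp, 9710 bp and 9100 bp, and 10236 bp and 7571 bp, and 1 sex passed its limit each time.

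Only when peaks of both ages were held to 1 width, the P1 limit of 4469 bp, was the set one of domains with narrower peaks at 12 weeks, and it then had 24 domains in place of 304. Of these 24, 11 held the start of a protein-coding gene and 13 did not. Of the 24, 8 lay on the H19 side of chromosome 7 or in or near Dlk1, Grb10, Peg3 and Igf2r, 4 at Col1a1, Pdgfra, Vim and Gas1, 4 in clusters of histone genes and 1 at the Wnt receptor gene Fzd2. The other 7 lay in or near Jpt1, Pik3r1, Arhgap8, Slc16a1, Ssh1, Eef2k and Irs2. This grouping was made after the values had been seen and is a description only.

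**Figure D3:**
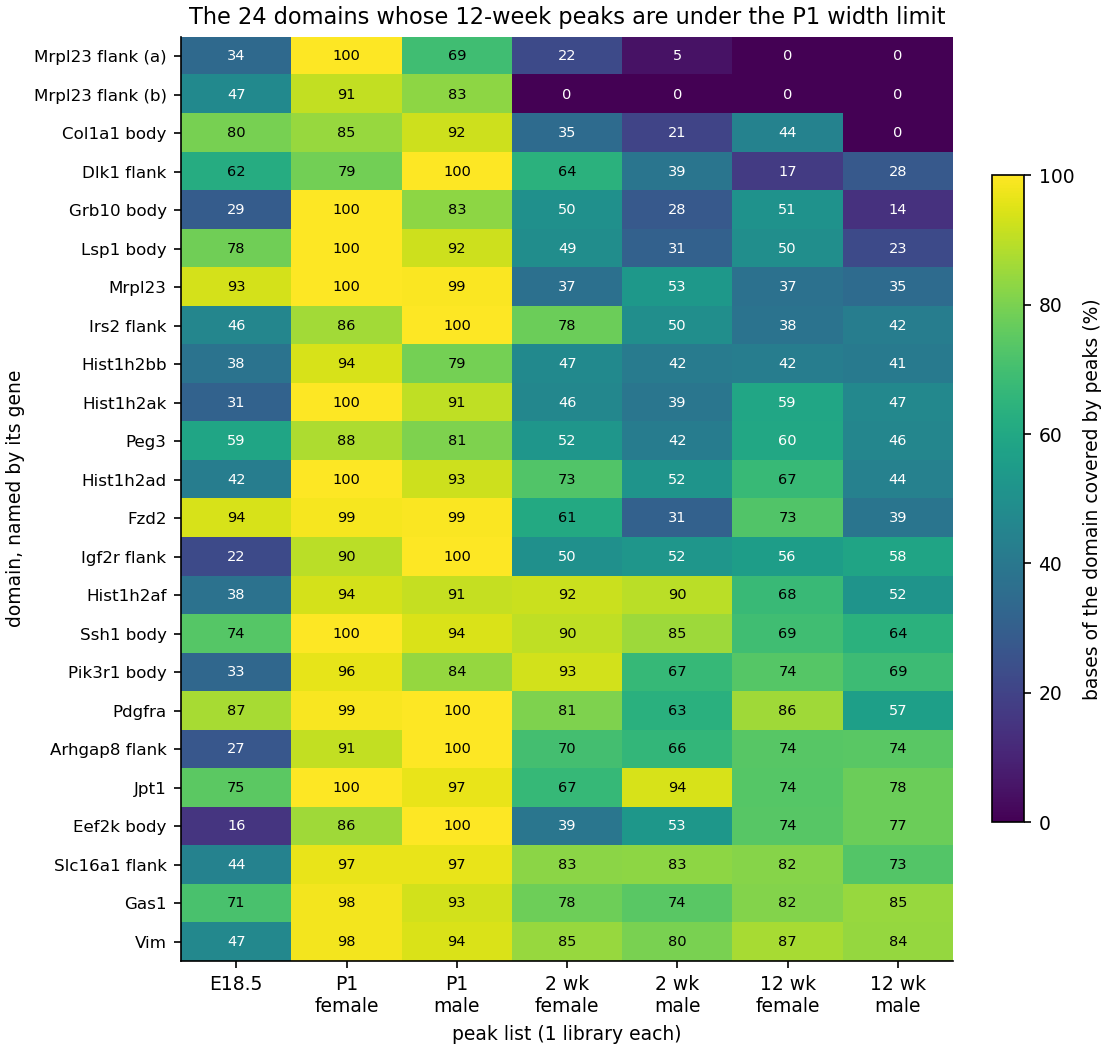
Covered share (percent of bases, colour and printed value) of the 24 domains with no 12-week peak of 4469 bp or more (rows, named by gene, with "flank" or "body" where no coding start lies inside) in the 7 peak lists (columns), in order of their 12-week share. The Mrpl23 flank rows (a) and (b), the second of them next to H19, reach 0 in both 12-week columns, and the Vim and Gas1 rows stay above 80 there.

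The 5 domains on the H19 side of chromosome 7 formed the densest group. They lay within 122 kb (chr7:142452676-142575121), whereas no other run of domains less than 100 kb apart held more than 2. When the ranking was limited to stronger peaks (−log10 q from 5 upwards), 4 of these 5 were no longer chosen, both intergenic ones near Mrpl23 and both at Lsp1, nor were the domains of Col1a1, Dlk1 and the one in Grb10 farther from its start. Igf2 encodes a growth factor of the fetus, made from the paternal chromosome, and H19 a noncoding RNA made from the maternal one; enhancers on the far side of H19 are known to serve both. The domain nearest to H19 (chr7:142563415-142575121) ended 407 bases past the 3′ end of H19 and held no coding start. It was covered 47.4% at E18.5, 90.8% and 82.9% at P1, and 0% in all 4 later lists. No other domain was without a peak in both 2-week lists, a state that 7.86% of all regions with peaks in both P1 lists shared. Its sequence is the H19 downstream flank shown above.

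The next domain (chr7:142521296-142530562), 2450 bp from the start of Mrpl23, was covered 34.1% at E18.5, 100% and 69.4% at P1, 22.5% and 4.91% at 2 weeks and 0% in both 12-week lists. These were the only domains of the 304 with no peak in either 12-week list, against 5.76% of the background. The domain over the start of Mrpl23 (chr7:142531715-142536435), which encodes a mitochondrial ribosomal protein, was covered 93.5% at E18.5, 99.7% and 99.3% at P1, 36.9% and 53.5% at 2 weeks, and 37.5% and 35.1% at 12 weeks. Its promoter window stayed covered whole in all lists, so that only the outer parts of the domain were uncovered later.

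Both domains at Lsp1, which encodes an actin-binding protein of leukocytes, followed at a greater distance. The one inside the gene (chr7:142478636-142488679) was covered 78.5% at E18.5, 99.8% and 92.4% at P1, 49.0% and 31.2% at 2 weeks, and 49.5% and 22.6% at 12 weeks. The one over a start of Lsp1 (chr7:142452676-142462700) was covered 40.4% at E18.5, 82.9% and 91.8% at P1, 36.1% and 9.80% at 2 weeks, and 78.1% and 41.5% at 12 weeks. This last domain had a peak of 7890 bp in 12-week females, wider than the 7570 bp of P1 females. At the start of H19 itself the widest peak within 1 kb measured 4292 bp at E18.5, 2040 bp and 2047 bp at P1, with no peak in any later list. At the starts of Igf2 it measured 5562 bp, 882 bp and 1208 bp, again with none later. Of the whole stretch from the first to the last of the 5 domains, peaks covered 44.1% at E18.5, 55.9% and 50.7% at P1, 17.4% and 10.8% at 2 weeks, and 18.1% and 10.9% at 12 weeks.

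**Figure D4:**
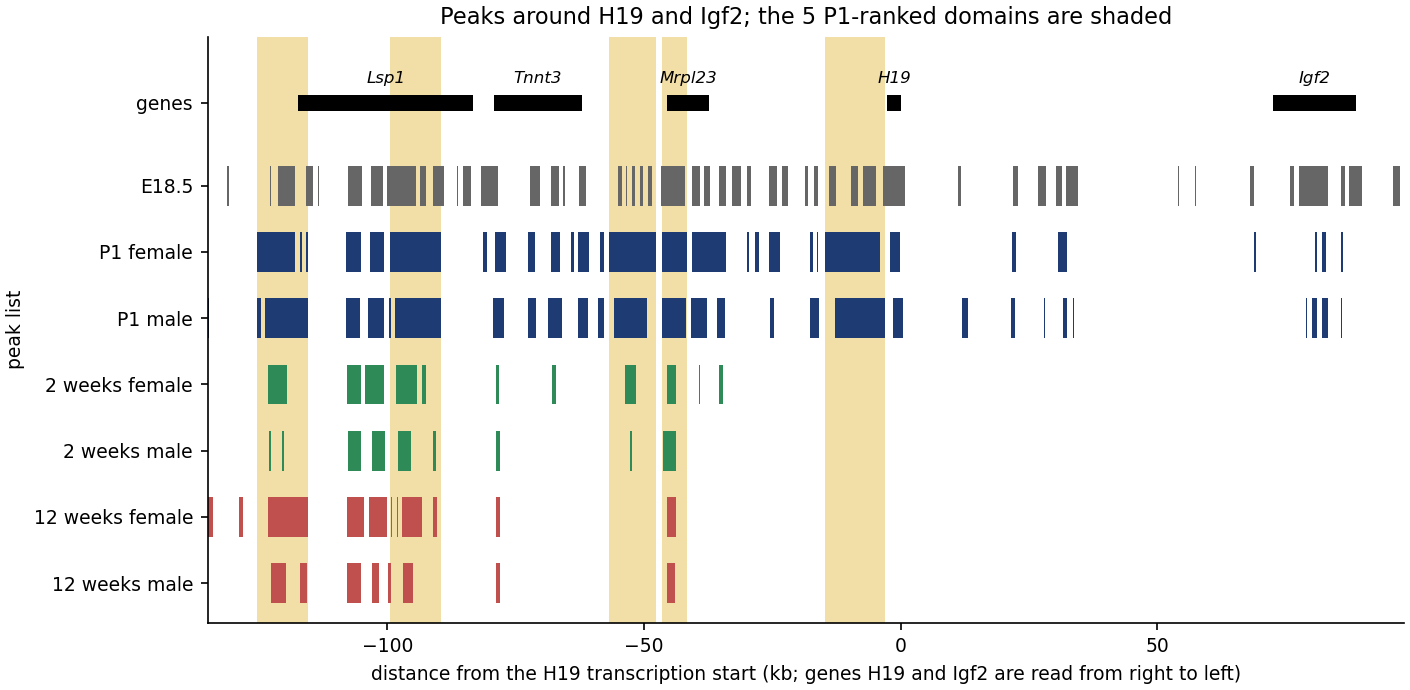
Peaks of the 7 lists (rows) around H19 as bars, by distance from the H19 start in kb (horizontal axis), with genes as black bars on top and the 5 P1-ranked domains shaded. The E18.5 row and both P1 rows hold peaks at H19 and to its right up to Igf2, and the 4 later rows hold none there.

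Other imprinted genes also had domains in or near them. Dlk1 encodes a membrane protein of immature and capsular cells, and its domain (chr12:109396291-109404396) ended 48.4 kb before the gene's start. It was covered 61.9% at E18.5, 78.7% and 100% at P1, 64.0% and 39.0% at 2 weeks, and 17.2% and 28.0% at 12 weeks. The widest peak within 1 kb of the start of Dlk1 measured 3105 bp at E18.5, 1522 bp and 2505 bp at P1, 885 bp and 620 bp at 2 weeks, and was absent from both 12-week lists. At Meg3, a noncoding RNA of the same imprinted locus, it measured 3795 bp at E18.5, 1754 bp and 2213 bp at P1, 2073 bp and 2151 bp at 2 weeks, and 3691 bp and 2218 bp at 12 weeks, so the promoters of this locus did not all narrow.

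Grb10, which encodes an inhibitor of insulin and IGF receptor signalling, held a pair of P1-ranked domains in its body. The one farther from the main start (chr11:11951093-11958161) was covered 29.2% at E18.5, 100% and 83.2% at P1, 50.02% and 28.1% at 2 weeks, and 50.9% and 14.2% at 12 weeks. Its neighbour (chr11:11959151-11970041), less than 1 kb away, was covered 24.5% at E18.5, 84.7% and 92.8% at P1, 81.7% and 76% at 2 weeks, and 77% and 79.8% at 12 weeks. The pair thus had like values at P1 and unlike values later.

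Peg3 encodes a zinc finger protein expressed from the paternal allele and shares its start region with Usp29. Their domain (chr7:6727056-6733670) was covered 58.7% at E18.5, 87.7% and 80.7% at P1, 52.4% and 42.0% at 2 weeks, and 59.8% and 46.1% at 12 weeks. The Peg3 promoter window was covered whole in all lists except that of 12-week males, where it was at 0%. In that list a peak of 3048 bp still lay within 1 kb of a Peg3 start. A domain 9036 bp from the start of Igf2r (chr17:12778700-12783716), the receptor that clears Igf2, was covered 22.4% at E18.5, 89.7% and 99.9% at P1, and 50.3% to 58.4% in the 4 later lists.

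Of the 40 imprinted genes listed, 3 had a start in a P1-ranked domain (Peg3, Usp29, Dcn), 1 in a domain wide at both ages and 2 in a 12-week-ranked domain. Of 23 genes of fetal and growth programmes, 2 had (Peg3 and Igf1r). For comparison, 256 of 20720 protein-coding genes (1.24%) had a start in a P1-ranked domain. The Igf1r domain (chr7:67949766-67955589), over the start of the receptor for Igf1 and Igf2, was covered 65.3% at E18.5, 82.9% and 100% at P1, and 87.3% to 88.9% in the 4 later lists.

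Genes of fibroblasts and stroma made up a second group, in which the 12-week lists of the sexes stood apart. Of 23 such genes, listed after the domains' genes had been seen, 7 had a start in a P1-ranked domain and none in the other wide classes: Pdgfra, a growth factor receptor of mesenchymal progenitors, Prrx1, a transcription factor of mesenchyme, the matrix proteoglycan genes Dcn and Omd, Vim, an intermediate filament gene, Gas1, a Hedgehog co-receptor gene, and the noncoding Dnm3os. The Dcn domain (chr10:97478089-97484661) was covered 2.86% at E18.5, 99.0% and 84.4% at P1, 84.0% and 56.8% at 2 weeks, and 100% and 19.8% at 12 weeks. The Omd domain (chr13:49580242-49586239) was covered 10.4% at E18.5, 100% and 86.2% at P1, 99.4% and 84.7% at 2 weeks, and 95.7% and 25.9% at 12 weeks. At both genes the 12-week females lay among the P1 and 2-week values or above them, and the 12-week males were the lowest of the 6 postnatal lists.

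The Prrx1 domain (chr1:163309694-163315211) was covered 84.0% at E18.5, 99.2% and 98.5% at P1, 70.2% and 61.0% at 2 weeks, and 82.9% and 48.6% at 12 weeks. The Pdgfra domain (chr5:75151372-75157027) was covered 86.8% at E18.5, 99.1% and 99.9% at P1, 80.8% and 63.5% at 2 weeks, and 85.9% and 56.6% at 12 weeks. At Vim and Gas1 the sexes lay close together: at 12 weeks the Vim domain was covered 86.8% and 84.1%, and the Gas1 domain 81.6% and 84.7%. Over the 7 domains the median covered share was 85.9% in 12-week females and 48.6% in 12-week males. In males all 7 had a narrower peak at 12 weeks than at P1, and in females 4 had, while the peaks at Dnm3os, Dcn and Omd were wider.

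**Figure D5:**
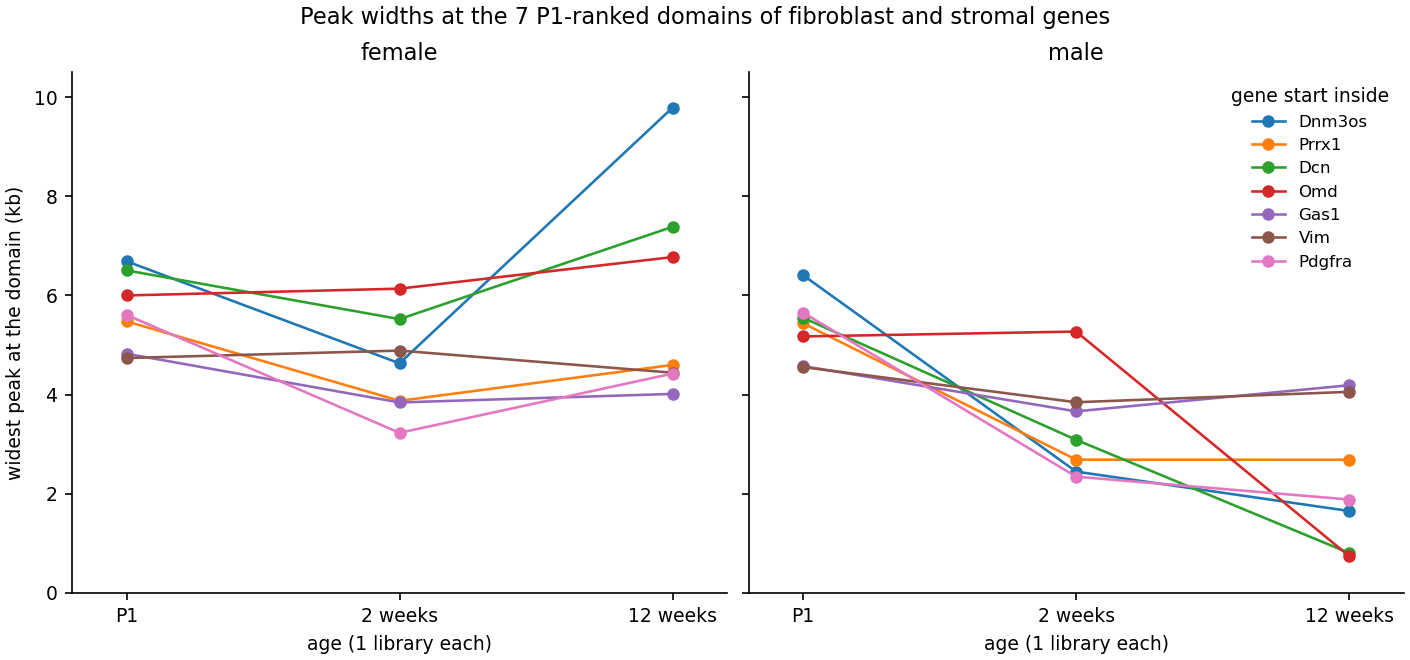
Width of the widest peak (kb, vertical axis) at the 7 P1-ranked domains holding a start of a fibroblast or stromal gene, at P1, 2 weeks and 12 weeks (horizontal axis, 1 library each), females left and males right. In males all 7 lines end lower than they start, with Dcn at 804 bp and Omd at 741 bp, and in females the Dnm3os line ends highest, at 9785 bp.

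Counts of called promoters differed between the 12-week lists as well. Peaks within 1 kb of a start were called for 65.3% of all coding genes in 12-week females and 61.3% in 12-week males. For the 23 fibroblast and stromal genes it was 21 and 14. Dpp4 and Dpt had no peak in either sex, and Col3a1, Fap, Lum, Mfap5, Ogn, Omd and Twist2 had none in males only. For 24 genes of chromaffin cells and sympathoblasts, the cells of the medulla, the counts were 18 and 7 at 12 weeks, after 12 and 18 at P1 and 19 and 20 at 2 weeks. The defining genes Dbh, Pnmt and Phox2a were called in females and not in males, Chga was called in neither, and genes such as Th, Chgb, Hand2 and Slc18a1 were called in both. Pnmt and Chga were called in neither P1 list. For 10 immune genes the counts were 7 and 3 at 12 weeks, after 0 and 3 at P1 and 0 in both sexes at 2 weeks. The fibroblast and stromal counts were 22 and 20 at P1 and 21 and 20 at 2 weeks. For 21 steroidogenic genes the counts at 12 weeks were 21 and 21. The 12-week male list also covered less of the genome, 101 Mb against 129 Mb. The part of the cell mix and of the length of the lists in the gap was not tested.

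A further matrix gene, Col1a1, which encodes the main chain of type I collagen, held a P1-ranked domain in its body. This domain (chr11:94944195-94950165) was covered 79.6% at E18.5, 84.5% and 92.2% at P1, 35.1% and 20.5% at 2 weeks, and 44.4% and 0% at 12 weeks. Over the whole gene body, peaks covered 73.3% at E18.5, 50.8% and 76.5% at P1, 27.7% and 11.9% at 2 weeks, and 37.3% and 4.70% at 12 weeks. The values of both sexes at 2 weeks and at 12 weeks lay below both P1 values. At its start the widest peak measured 2656 bp at E18.5, 547 bp and 7092 bp at P1, 795 bp and 376 bp at 2 weeks, and 4839 bp and 790 bp at 12 weeks, above P1 in 12-week females and below it in 12-week males. Among 31 listed genes of the extracellular matrix only Dcn had its start in a P1-ranked domain, and 3 (Col4a1, Col4a2, Sparc) had it in a domain wide at both ages.

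Clusters of replication-dependent histone genes, which are transcribed as cells copy their DNA, held 5 P1-ranked domains. They carried starts of 15 of 67 genes whose symbol begins with Hist, a set looked at after the genes inside had been seen, and none of these genes had a start in the other wide classes. Copies of these genes are nearly identical, so reads may be placed wrongly among them. The domain of Hist1h2bb and Hist1h3c (chr13:23743202-23748960) was covered 38.2% at E18.5, 93.8% and 79.1% at P1, 47.3% and 41.5% at 2 weeks, and 42.4% and 40.7% at 12 weeks. The domain of Hist1h2ak, Hist1h2bn and Hist1h4k (chr13:21749241-21755899) was covered 31.3% at E18.5, 100% and 90.5% at P1, 46.2% and 39.1% at 2 weeks, and 59.1% and 46.7% at 12 weeks. For both domains, each of the 4 later values lay below both P1 values.

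The other 3 histone domains, at Hist1h2af (chr13:23529073-23537171), Hist1h2ad (chr13:23569745-23577663) and Hist2h2aa1 (chr3:96243281-96248307), were covered 51.6% or more in 12-week females and males, except for 43.9% at Hist1h2ad in males. All 5 had narrower widest peaks at 2 and at 12 weeks than at P1 in both sexes. At Hist1h2af the 2-week difference was small, from 7587 bp to 7457 bp in females and from 7379 bp to 7272 bp in males. Over all 304 domains, 127 were narrower at 2 weeks in females (41.8%, against 38.9% of all regions with peaks in both P1 lists) and 147 in males (48.4%, against 46.5%). At 12 weeks 60 were narrower in females (19.7%, against 20.9%) and 105 in males (34.5%, against 30.3%). The choice bears on these counts, since it used the P1 and 12-week widths. Promoters of erythroid genes, markers of red cell precursors, were called for 13 of 14 genes at E18.5, 13 and 12 at P1, 6 and 7 at 2 weeks, and 8 and 7 at 12 weeks. Over all coding genes the called share was 71.6% at E18.5 and lay between 60.02% and 65.3% in the 6 postnatal lists. The part of these cells in the lower values of the histone and chromosome 7 domains was not tested.

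Of 32 listed cell cycle genes, 3 had a start in a P1-ranked domain: Ccnd1 and Ccnd3, the genes of D cyclins, and Myc. The Ccnd1 domain (chr7:144937747-144943329) was covered 100% at E18.5, 99.6% and 85.1% at P1 and at least 99.3% in the 4 later lists. The Myc domain (chr15:61983751-61988741) was covered 83.2% at E18.5, 91.5% and 100% at P1 and 100% in the 4 later lists. The Ccnd3 domain (chr17:47592025-47600984) was covered between 85.2% and 100% in all 7 lists. The second widest domain by its lesser P1 width, 9759 bp, held the starts of Afmid and of Tk1, the gene of the thymidine kinase used in DNA synthesis, and was covered 84.9% at E18.5 and between 85.7% and 100% after birth. Its widest peak measured 9759 bp and 9920 bp at P1, 9705 bp and 5654 bp at 2 weeks, and 9884 bp and 5450 bp at 12 weeks, so it was narrower later in males while most of its bases stayed covered.

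Genes of signalling between capsule and cortex entered with Fzd2 and Fzd7, receptors for Wnt ligands, and Ptch1, the Hedgehog receptor, 3 of 45 listed genes of the Wnt, Hedgehog, Notch and BMP pathways. The Fzd2 domain (chr11:102602719-102607611) was covered 94.0% at E18.5, 98.7% and 99.3% at P1, 60.6% and 30.9% at 2 weeks, and 72.7% and 38.9% at 12 weeks. The Fzd7 domain (chr1:59480627-59486005) was covered 77.4% at E18.5, 100% and 91.0% at P1, 100% and 83.2% at 2 weeks, and 100% and 97.9% at 12 weeks. The Ptch1 domain (chr13:63562162-63568888) was covered 78.7% at E18.5 and from 92.8% to 100% after birth. Fzd2 was therefore the 1 of these 3 with less than 50% of its bases covered in a later list, in males at both ages. A further Wnt receptor gene outside the 45, Fzd5, also had its start in a P1-ranked domain.

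Of 60 listed developmental transcription factor genes, 23 had a start in a domain wide at both ages, 4 in a P1-ranked domain and 1 in a 12-week-ranked domain. Of all 20720 coding genes, 210, 256 and 167 had. Those 4 were Cited2, a co-activator gene needed for the adrenal to form, Klf7, Foxc1 and Prrx1. The Cited2 domain (chr10:17721365-17727892) was covered 54.4% at E18.5, 99.4% and 100% at P1, 100% and 99.1% at 2 weeks, and 100% and 98.3% at 12 weeks. The Klf7 and Foxc1 domains were covered at least 93.6% in all 4 later lists.

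Another list, of immediate-early and stress response genes, was written after the domains' genes had been seen. Of 65 such genes, 19 had a start in a P1-ranked domain, 14 in a domain wide at both ages and 1 in a 12-week-ranked domain. Among the 19 were Jun and Jund, parts of the AP-1 factor, Atf4, Klf6, Myc and Ccn1. All 19 domains were at least 50% covered in all 7 lists, with medians of 76.5% at E18.5, 95.4% and 95.6% at 2 weeks and 100% in both 12-week lists. The Jun domain (chr4:95049011-95055351) was covered 74.8% at E18.5, 100% and 92.2% at P1, 94.7% and 95% at 2 weeks, and 100% in both 12-week lists. Its widest peak measured 6341 bp and 5846 bp at P1, and 7187 bp and 7588 bp at 12 weeks.

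Lists of markers of the other cell types of the gland were read against the 1.24% of all coding genes with a start in a P1-ranked domain. None of 21 steroidogenic genes had a start in a P1-ranked domain, while 5 (Star, Cyp11b1, Nr5a1, Mrap, Gata6) had one in a domain wide at both ages and 5 in a 12-week-ranked domain. Of 16 genes of the zona glomerulosa and capsule 1 had, Ptch1. The lists of X-zone, chromaffin, Schwann, erythroid, immune, endothelial, smooth muscle, fat, kidney and liver markers and of cholesterol supply had none, of 4, 24, 6, 14, 10, 10, 8, 8, 8, 8 and 22 genes. Joined, these 13 lists hold 153 genes, of which 1 (0.65%) had such a start, and at the share of all coding genes lists of this length hold few or none. As a check of the tissue, 20 or 21 of the 21 steroidogenic promoters were called in every list.

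A promoter was what most of the domains had in common beyond their rank. A protein-coding transcription start lay inside 217 of the 304 (71.4%, interval 66.1% to 76.2%), against 55.9% of the domains wide at both ages, 45.5% of the 12-week-ranked domains and 33.3% of all regions with peaks in both P1 lists. The regions of this last background were shorter, with a median widest P1 female peak of 1223 bp against 5482.5 bp. The share in the P1-ranked domains moved with the processing, as the last section gives. Starts of 256 coding genes lay inside, with 2 or more genes in 33 domains. Domains with a coding start had a median E18.5 share of 75%, and the 87 without had 47.5%. Of the 8 domains under 50% covered in both 12-week lists (2.63%, against 10.7% of the background), 6 held no coding start. The same was true of 4 of the 7 under 50% in both 2-week lists (2.3%, against 16.6%) and of 4 of the 5 under 50% in all 4 later lists (1.64%, against 8.23%). Those 5 were the Col1a1 body, the Hist1h2bb cluster, the Lsp1 body and both intergenic domains near Mrpl23.

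The classes also differed in base composition. The median CpG content, as observed over expected, was 0.39 in the P1-ranked domains, 0.29 in those wide at both ages and 0.23 in the 12-week-ranked ones, and the GC box occurred 1.06, 0.79 and 0.34 times per kb. The letters of the GC box in reversed order occurred 1.10, 0.80 and 0.35 times, but both orders can be read from 1 longer run of G and C, so they give no control for this motif. Among domains with a coding start the same order held, with a CpG content of 0.46, 0.40 and 0.27 and a GC box rate of 1.33, 1.09 and 0.50 per kb. The nuclear receptor half-site occurred 0.20, 0.23 and 0.27 times per kb, while its letters in reversed order, a control for composition, occurred 0.21, 0.20 and 0.20 times. In domains without a coding start the half-site occurred 0.24, 0.24 and 0.27 times per kb, against 0.22, 0.19 and 0.21 for the reversed letters. The GATA motif occurred 0.46, 0.44 and 0.51 times per kb, against 0.34, 0.33 and 0.42 for its reversed letters.

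The domain with the widest P1 peaks of all lay in no coding gene, 123 kb past the 3′ end of Meis1, a homeobox gene of developing tissues, over the noncoding RNA Gm28401 (chr11:18745000-18756980). It was covered 3.10% at E18.5, 100% and 95.3% at P1, 70.7% and 56.0% at 2 weeks, and 79.1% and 79% at 12 weeks. Its widest peak measured 372 bp at E18.5, 11979 bp and 11423 bp at P1, 7594 bp and 6704 bp at 2 weeks, and 8351 bp and 8582 bp at 12 weeks. Domains with E18.5 shares under 10% numbered 8, and 6 of them held no coding start. The domain between genes that holds the start of 3930402G23Rik, 55.4 kb past the 3′ end of Irs2 (chr8:10923857-10929232), was covered 45.8% at E18.5, 86.3% and 100% at P1, 77.6% and 49.6% at 2 weeks, and 38.2% and 42.4% at 12 weeks.

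Of the 12 domains with the largest lesser P1 widths, the one nearest H19 and the one inside Lsp1 were under 50% covered in all 4 later lists, and the one over a start of Lsp1 was in 3 of the 4, the exception being 12-week females. Those at Zc3h4, Foxs1, Clic1 with Msh5, Ifi47 with Olfr56 and Adgra2, and the one inside Sufu, an inhibitor of Hedgehog signalling, were covered at least 75.9% in each of the 4 later lists. At the other end, the 6 domains with the highest 12-week share, ties resolved by P1 width, were covered 100% in both 12-week lists, and held the starts of Tnfrsf1a, Fam160b1, Sh2b3, Zfp52, and Gm5475 with Slc11a2, or lay inside Uaca. The Tnfrsf1a domain (chr6:125348872-125356572), over the gene of a receptor for tumour necrosis factor, had widest peaks of 7701 bp and 7560 bp at P1, and 9046 bp and 8448 bp at 12 weeks.

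Between the sexes, 12 domains were at least 50% covered in 12-week females and under 50% in 12-week males (3.95%, against 8.82% of all regions with peaks in both P1 lists), and none was the other way round (against 1.76%). The 12 were the domains of Dnm3os, Prrx1, Dcn, Omd, the Grb10 body, Fzd2, Smim5, Hist1h2ak, Hist1h2ad, Peg3, the start of Lsp1, and a flank of Nfe2l3. At 2 weeks, 11 domains were covered in females alone (against 10.4%) and 2 in males alone (against 3.83%). Of the 12, 5 were among the 11, namely those of Dnm3os, the Grb10 body, Fzd2, Smim5 and Peg3. By width, 64 domains had a wider peak at 12 weeks than at P1 in females and a narrower one in males (21.1%, against 15.7%), and 19 the reverse (6.25%, against 6.34%). The choice bears on these counts, because it kept 12-week peaks to at most 10129 bp in females and 9049 bp in males. The background was not limited in this way. The female lists covered more of the genome at both ages, 76.1 Mb against 68.0 Mb at 2 weeks, and the difference between the sexes has 1 library on each side.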

How the data were processed

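H3K27ac was measured by ChIP-seq in 7 libraries of pooled mouse adrenal glands. Per the submitters' processing notes, CASAVA 1.8.2, Bowtie2 2.3.4.3, MACS2 2.1.1 and deepTools 3.2.2.0 were used with the mm10 build; cutoffs and the control library are not given in the sources used here. The authors deposited 1 broad peak list per library, called on each library alone. Each deposited peak has a score, a fold enrichment over the caller's background (a ratio), and −log10 p and −log10 q values from the authors' caller. These values belong to single peaks and were used only to filter peaks within a list. The lists hold no read counts, so depth is unknown, and a region outside all peaks is not shown to lack the mark. Each combination of age and sex has 1 library, so values have no replicate error.

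From the lists, peaks on chromosomes 1 to 19 were ranked by width, the 1000 widest were merged as described, and the covered share of a domain was the percent of its bases inside peaks of a list. Width is that of the widest peak touching the domain, which may reach past it. Of 412141 peaks, 0 ended past a chromosome end of GRCm38, whose coordinates are counted from 1. Genes came from GENCODE M21 (basic set), promoter and microRNA sequences from RefSeq. Intervals are 95% Wilson intervals. The choice recovered 300 of 300 domains planted in simulated lists, and all 2128 covered shares were the same in bedtools 2.31.1. Python 3.11.15, numpy 2.4.6 and scipy 1.17.1 were used.

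The domains, lists and rules were chosen with earlier results of these data known. Domains were named when they had the 12 largest lesser P1 widths, the 8 lowest shares at 12 weeks or at 2 weeks, the 6 highest at 12 weeks, the start of a listed gene, or a place next to the limit. Domains described outside this rule, such as those near Igf2r, of Mir125b-1, Smim5 and Nfe2l3, and the second in Grb10, were picked after their values had been seen. The fibroblast, immediate-early and histone lists were added after the genes inside had been seen. Alternatives were other numbers of wide peaks, joined peaks, stronger peaks, 1 width limit for both ages, single lists, other shares counted as covered, and lists of equal size.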

Additional observations from a re-analysis of the deposited data

Results flagged for a closer look

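In 83 of the 304 domains the widest peak was wider at 12 weeks than at P1 in 1 sex and narrower in the other, 64 with the wider peak in females and 19 in males, against 15.7% and 6.34% of all regions with peaks in both P1 lists. Of the 83, 16 are described in the text. The value given is the ratio of 12-week to P1 width in females divided by that in males. The difference was not tested, since each width comes from 1 library. The choice also bears on it, because it capped the 12-week widths at 10129 bp in females and 9049 bp in males. The largest of all 83 was 7.88 at Omd, where the ratio was 1.13 in females (5998 bp to 6772 bp) and 0.14 in males (5171 bp to 741 bp). Dcn had 7.83, from 6504 bp to 7382 bp in females and from 5548 bp to 804 bp in males. Smim5 had 6.72, Dnm3os 5.68 and the flank of Nfe2l3 3.84. The start of Lsp1 had 2.99, from 1.04 in females and 0.35 in males. The ratio of ratios was 1.84 at Afmid with Tk1, 1.69 at Sema6a, 1.66 at Clic1, 1.43 at Cited2, 1.43 at Igf1r, 1.31 at Ccnd3, 1.30 at the flank of Krt78, 1.204 at Foxc1 and 1.17 at Foxs1. At Zc3h4 it was 0.92, with the wider peak in males. Cited2, Foxs1 and Sema6a differed in males by 1.10% of the width or less, a size at which a shift of a peak edge can turn the direction. At 12 weeks the female list had more wide peaks in all, 5742 of at least 4469 bp against 4383 in males.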

How the results depend on the processing

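No paired analysis was run, no result comes from a test, and the labels give no replicate numbers. A fit of age with sex as a block was possible in the postnatal lists and was not run. The number of domains, 304 in the report, was 152 with the 500 widest peaks, 507 with the 2000 widest, 542 from the P1 female list alone, 508 from the P1 male list alone, and 24 when 12-week peaks at least as wide as the P1 limit counted as wide. For these 24 the shares at least 50% covered were 45.8% in both 2-week lists, 45.8% in both 12-week lists and 41.7% at E18.5, and 45.8% held a coding start. The share covered in both 2-week lists was 90% with peaks joined across 1 kb, 80.1% across 3 kb, 86.9% from P1 females alone, 89.8% from P1 males alone and 89.8% with lists of the same covered length (55.4 Mb, chosen after seeing the data). It was 98.7% and 78.3% with 25% and 75% of bases as the bar, and 63.8% with covering peaks of a −log10 q of at least 5. The share in both 12-week lists was 89.3% across 1 kb, 86.3% across 3 kb, 89.3% from P1 females alone, 80.9% at the same covered length, 97.7% and 86.2% with the other bars, and 71.4% with the stronger covering peaks. The share at E18.5 was 63.2% when all lists were limited to a −log10 q of at least 5, 62.4% from P1 females alone, 92.8% and 41.1% with the other bars, and 46.4% with the stronger covering peaks. The share with a coding start was 61.1% across 1 kb, 54.4% across 3 kb, 87.7% with the stronger peaks, 63.3% from P1 females alone and 61.8% from P1 males alone. The other 42 of 76 such values stayed within 1.5 times the count or inside the interval of the reported share. The cause of these shifts was not tested. The domains themselves changed more than the shares: joining across 3 kb left 40 of the 304, and the stronger peaks 140. Of the 41 named domains, 15 and 14 remained. Unknown depth limits every absence reported.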
